A study of Homo sapiens with 12 samples.

Results

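The genes described here are Toll-like receptors and the 2 proteins that hand lipopolysaccharide to TLR4. They were taken by gene symbol from the mRNA-seq values of each sample. The 10 genes are TLR1, TLR2, TLR4, TLR5, TLR6, TLR7, TLR8, TLR9, CD14 and LY96, and all 10 were found among the 20003 genes of the files. NB4 cells derive from acute promyelocytic leukemia and carry the PML-RARα fusion, and Kasumi-1 cells derive from AML-M2 and carry AML1-ETO. Each cell line was incubated for 48 h with DMSO as the control or with 1 μM OGP46, the compound under study, and 3 samples of each of the 4 groups were sequenced, 12 in all. The labels and the methods give this time, while a figure legend of the study gives a longer one. Each line is a single established leukemia line, and every sample of a line carries its fusion gene. The study calls its mRNA-seq figures representative of 3 independent experiments, but no label states that the samples came from separate cultures. The p-values therefore measure the spread between these samples, which may be technical. Expression is given as FPKM (fragments scaled by transcript length and by the mapped total).

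Toll-like receptors are membrane proteins that recognise microbial molecules and are typical of myeloid cells. TLR4 works with LY96 (MD-2) as a receptor for lipopolysaccharide, which CD14 delivers, while TLR2 pairs with TLR1 or TLR6 to bind bacterial lipoproteins. TLR5 binds flagellin at the cell surface, and TLR7, TLR8 and TLR9 sense nucleic acids in endosomes. Most of them signal through the adaptor MYD88, IRAK kinases and TRAF6 to NF-kB, which turns on cytokine genes and its own inhibitors.

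The genes lie at several places in the genome. In GENCODE 29 (GRCh38, the hg38 build that the submitters name), TLR1 (4:38790677-38856817) and TLR6 (4:38823715-38856817) lie on the minus strand of chromosome 4 and overlap, and their annotated start ends coincide. TLR10, a relative outside the 10 genes, is 7.687 kb beyond the other end of TLR1 (4:38772239-38782990). Of the 2750 windows of 100 bases in the longest TLR1 transcript, 119 (4.33%) were also in a transcript of TLR6. No other pair among the 10 genes, TLR3 and TLR10 shared any. Reads from the shared bases cannot be given to 1 of these genes by sequence, so the split between TLR1 and TLR6 is uncertain. TLR2 (4:153684070-153705702, plus strand) lies elsewhere on chromosome 4, TLR9 (3:52221080-52226163, minus strand) on chromosome 3, CD14 (5:140631728-140633701, minus strand) on chromosome 5 and TLR4 (9:117704175-117724730, plus strand) on chromosome 9. TLR7 and TLR8 lie 16.2 kb apart on chromosome X and TLR5 on chromosome 1.

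The promoters of the 4 genes on which the results turn are shown because they differ in base composition and in the letters they hold. Each run is the 250 bases before the gene's start in RefSeq (GRCh38.p14), 5′ to 3′ on the gene's strand. By the GENCODE positions given above, the CD14 run lies wholly inside the gene. Most of the TLR4 run and most of the TLR2 run also lie inside their genes, and only the TLR6 run lies wholly before its gene. Distances before the start are therefore counted from the RefSeq start, and not from the GENCODE start. Capitals mark matches, on either strand, to the letters of 6 motifs. GAGGAA is the core bound by PU.1, a myeloid factor. The AP-1 letters were TGANTCA and those of C/EBP were TTGCNNAA. For NF-kB the loose pattern was GGG and CC with any 5 bases between. The last were the TATA box, TATAAA, and the GC box of SP1, CCGCCC.
TLR4 (chr9:117704153-117704402, plus strand): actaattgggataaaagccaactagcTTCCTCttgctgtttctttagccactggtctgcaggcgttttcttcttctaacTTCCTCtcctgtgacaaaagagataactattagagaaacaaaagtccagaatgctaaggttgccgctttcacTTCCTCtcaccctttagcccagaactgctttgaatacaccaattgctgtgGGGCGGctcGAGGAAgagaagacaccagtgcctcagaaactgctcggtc
CD14 (chr5:140633176-140633425, minus strand): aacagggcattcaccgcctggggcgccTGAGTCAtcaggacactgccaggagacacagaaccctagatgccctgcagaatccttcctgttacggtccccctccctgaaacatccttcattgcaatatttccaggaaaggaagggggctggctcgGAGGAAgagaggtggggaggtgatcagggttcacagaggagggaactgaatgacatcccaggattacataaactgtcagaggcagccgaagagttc
TLR6 (chr4:38856818-38857067, minus strand): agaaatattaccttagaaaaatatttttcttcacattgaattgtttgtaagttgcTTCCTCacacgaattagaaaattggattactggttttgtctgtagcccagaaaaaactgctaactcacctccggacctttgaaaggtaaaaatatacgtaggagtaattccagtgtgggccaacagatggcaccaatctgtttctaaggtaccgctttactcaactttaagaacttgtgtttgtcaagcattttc
TLR2 (chr4:153684030-153684279, plus strand): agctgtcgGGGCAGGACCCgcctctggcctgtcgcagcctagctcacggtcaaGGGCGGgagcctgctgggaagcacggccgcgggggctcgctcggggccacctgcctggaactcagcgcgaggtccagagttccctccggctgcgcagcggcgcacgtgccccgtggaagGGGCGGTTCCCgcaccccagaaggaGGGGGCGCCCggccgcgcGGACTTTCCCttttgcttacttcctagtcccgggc

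The TLR4 run holds the PU.1 core 4 times, beginning 224, 171, 99 and 40 bases before the start, and a single GC box. CD14 holds 1 PU.1 core, 96 bases before its start, and 1 AP-1 match, TGAGTCA, 223 bases before it. TLR6 holds 1 PU.1 core, 195 bases before the start that it shares in GENCODE 29 with TLR1, and none of the other motifs. TLR2 holds no PU.1 core, but 6 matches to the NF-kB letters, of which some overlap each other or a GC box, and 2 GC boxes. Among 35116 RefSeq promoters of the same length, 23.6% held the PU.1 core, 6.57% the AP-1 letters, 54.4% the loose NF-kB letters and 42.6% the GC box. G and C made up 72.4% of the TLR2 run, 54.8% of CD14, 46.4% of TLR4 and 36.4% of TLR6, against a median of 58% over all promoters. RefSeq promoters were at hand for 7 of the 10 genes, with none for TLR1, TLR7 and LY96. Of those not shown, TLR9 held 2 PU.1 cores, 1 AP-1 match and 1 TATA box. TLR5 held 5 matches to the NF-kB letters and 2 GC boxes, with 66% G and C, and TLR8 held 1 C/EBP match. A match is a run of letters and not a measured binding site.

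The 2 cell lines expressed different receptors. In the NB4 controls, TLR4 was highest, with 5.07, 4.49 and 3.72 FPKM in samples 1, 2 and 3, and TLR2 was at 2.60, 1.06 and 2.39 FPKM. In the Kasumi-1 controls, TLR2 was at 8.46, 8.56 and 9.29 FPKM and TLR4 at 1.29, 1.25 and 1.09 FPKM. Thus the order of the 2 main receptors was opposite in every control sample of the 2 lines, and neither gene's control values overlapped between the lines.

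TLR4 was 1.78 higher on the log2(FPKM + 0.1) scale in NB4 controls than in Kasumi-1 controls (SE 0.14, limma adjusted p = 4.5e-06, 3 samples a group). TLR2 was lower in NB4 (log2 difference -2.16, SE 0.28, adjusted p = 1.0e-04). All log2 differences here are on this scale, which understates the change of low genes. TLR2 made up 79.1% to 81.0% of the summed FPKM of the 10 genes in Kasumi-1 controls and 13.2% to 23.4% in NB4 controls. TLR4 made up 9.46% to 12.2% of that sum in Kasumi-1 controls and 35.3% to 55.9% in NB4 controls. The 2 lines are single lines, so these are differences between NB4 and Kasumi-1 and not between the leukemia types.

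**Figure D1:**
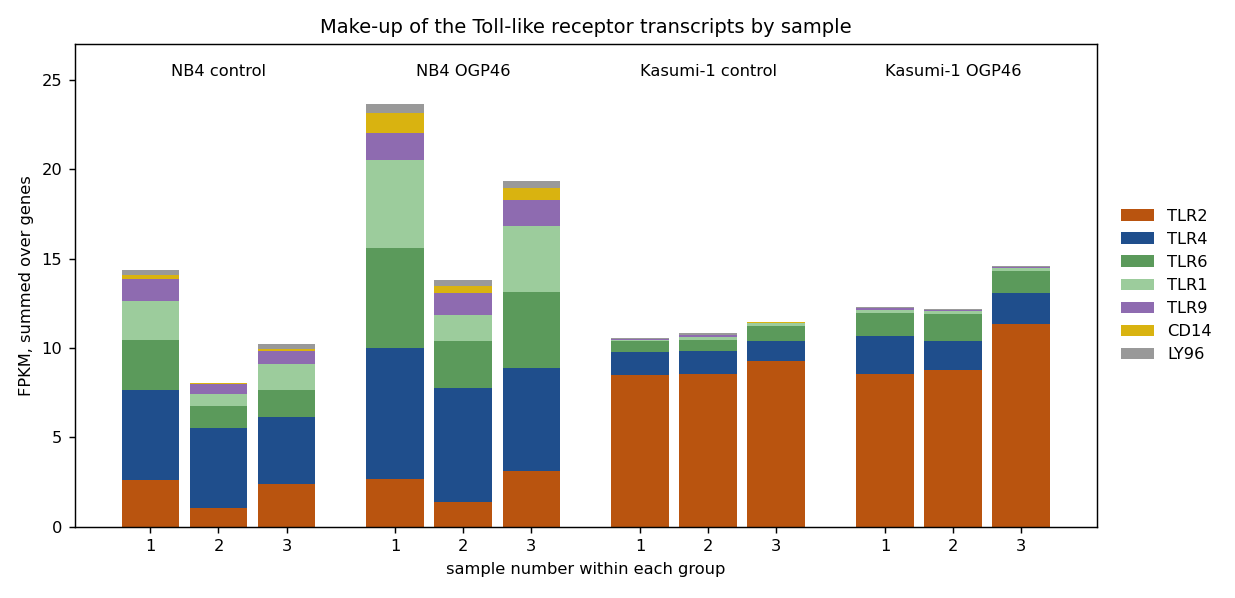
FPKM of 7 genes stacked for each of the 12 samples, with the sample number within each group on the horizontal axis. TLR5, TLR7 and TLR8, at 0.017 FPKM or less in every sample, are left out. TLR2 forms most of each Kasumi-1 bar and TLR4 is the largest block in each NB4 bar.

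The co-receptors of TLR2 were also higher in NB4. TLR1 was at 2.18, 0.689 and 1.47 FPKM in NB4 controls and at 0.060, 0.146 and 0.166 FPKM in Kasumi-1 controls (log2 difference 2.69, SE 0.37, limma adjusted p = 1.6e-04). TLR6 was at 2.78, 1.18 and 1.51 FPKM in NB4 controls and at 0.658, 0.655 and 0.853 FPKM in Kasumi-1 controls (log2 difference 1.15, SE 0.28, limma adjusted p = 0.0044). Every NB4 control lay above every Kasumi-1 control for both genes, as for TLR4, while TLR2 lay the other way. Among all genes tested, 34.6% lay wholly above and 43.1% wholly below. The line with less TLR2 had more of both of its partners.

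TLR9, the endosomal receptor for CpG DNA, was at 1.21, 0.548 and 0.726 FPKM in NB4 controls and at 0.044, 0.102 and 0.013 FPKM in Kasumi-1 controls (log2 difference 2.58, SE 0.31). With a mean of 0.053 FPKM in Kasumi-1 controls, TLR9 reached the test's minimum mean of 0.1 FPKM only through NB4, so no p is given. CD14 was low in both lines, with 0.260, 0.062 and 0.120 FPKM in NB4 controls and 0, 0.027 and 0.027 FPKM in Kasumi-1 controls. The CD14 groups did not overlap, but its mean was below the minimum of 0.1 FPKM that the test required. LY96 was at 0.272, 0 and 0.276 FPKM in NB4 controls and at 0.038, 0.083 and 0.041 FPKM in Kasumi-1 controls. LY96 also reached the minimum only through NB4, its groups overlapped and it was not called (log2 difference 0.66, SE 0.48).

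The other receptors were at or near 0. TLR8 was listed at 0 in all 12 samples. TLR7 was listed at 0 in 10 samples and at 0.009 and 0.010 FPKM in 1 control and 1 OGP46 sample of Kasumi-1. TLR5 reached at most 0.017 FPKM. None of these 3 genes reached the minimum for the test in any comparison. In total, 6 of the 10 genes were tested between the controls and 5 were called, 4 higher and 1 lower in NB4. Of those higher, TLR9 reached the minimum only through NB4. Of all 12302 genes tested in that comparison, 22.7% were called higher and 29.7% lower in NB4. These were 2790 genes higher and 3659 lower, against 3595 and 2994 with each sample scaled to a common FPKM sum (TPM scaling), while the same 5 receptor genes kept their directions.

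Within the NB4 controls, the order of the means was TLR4, TLR2, TLR6, TLR1, TLR9, LY96, CD14 and TLR5. Of neighbours in this order, the ranges overlapped between TLR2 and TLR6, TLR6 and TLR1, TLR1 and TLR9, and LY96 and CD14. They did not overlap between TLR4 and TLR2, TLR9 and LY96, or CD14 and TLR5. With OGP46 the order in NB4 was TLR4, TLR6, TLR1, TLR2, TLR9, CD14 and LY96, so TLR2 moved from the second to the fourth place, again with overlapping ranges from TLR6 to TLR9. In Kasumi-1 the order TLR2, TLR4, TLR6 and TLR1 held in both groups, and their ranges did not overlap with each other. The range of TLR1 overlapped that of the gene after it, LY96, in the controls, but not that of TLR9, which followed it with OGP46. In these mRNA values of whole cultures, fewer cells that express a gene and less RNA per cell cannot be told apart.

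**Figure D2:**
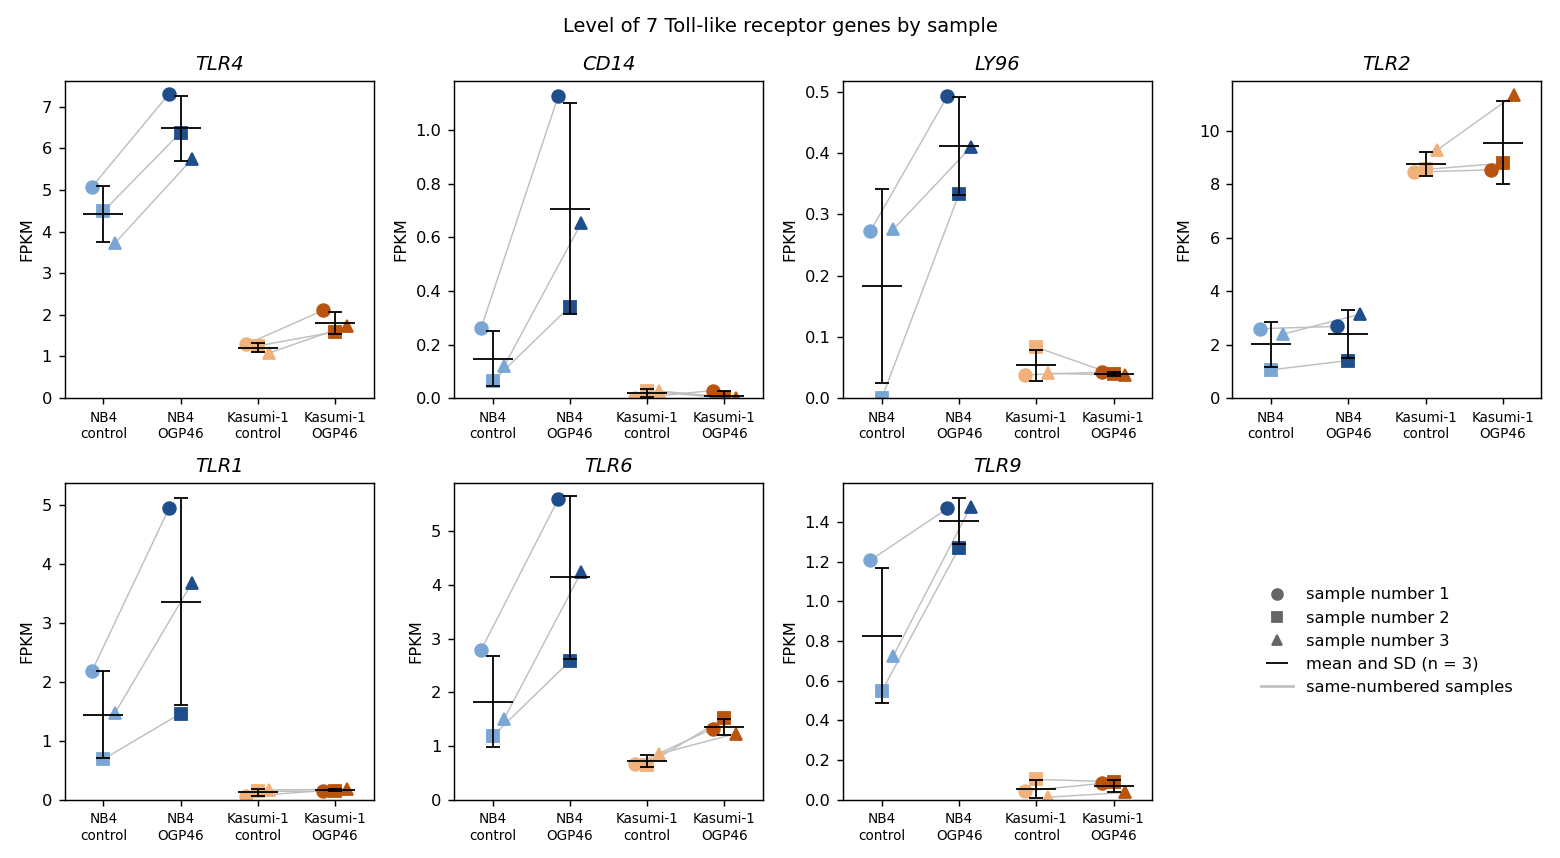
FPKM of 7 genes (vertical axes, each with its own scale from 0) in the 4 groups, with 1 point for each sample and black bars for the mean and SD of 3 samples. Grey lines join same-numbered samples, and in NB4 all of them run upwards for each of the 7 genes.

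OGP46 raised most of the measured genes in NB4 cells once same-numbered samples were compared with each other. No label pairs control and OGP46 samples, but deviations of same-numbered NB4 samples from their group means correlated over 11750 genes (r = 0.355, 0.622 and 0.197). For pair 3 a differently numbered sample correlated more over these genes, but not over genes of at least 5 FPKM (r = 0.439). The number was therefore used as a block in a second fit, named the replicate block below. Without it, none of the 7 genes tested in NB4 was called by limma at an adjusted p below 0.05 and a log2 difference of at least 0.58, while 5 of the 7 had an unadjusted p below 0.05. With it, TLR1, TLR6, TLR9, CD14 and LY96 rose, which is 5 of 7. Of all 11750 genes, 1.45% were called higher without and 5.06% with the replicate block. All 7 genes were higher with OGP46 in each of the 3 pairs, which held for 52.9% of all genes. The 7 genes had a median log2 difference of 1.08, against 0.18 for all genes tested, which depends on the scaling of the samples. The part of this general shift in the change of the 7 genes was not tested.

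CD14, the carrier of lipopolysaccharide and a monocyte marker, changed most. It was at 0.260, 0.062 and 0.120 FPKM in NB4 controls and at 1.13, 0.342 and 0.655 FPKM with OGP46. All OGP46 samples lay above all controls, and the ratio within pairs was 4.33, 5.50 and 5.47. The log2 difference was 1.67 (SE 0.42, limma adjusted p = 0.0692), or with the replicate block SE 0.22 and adjusted p = 4.9e-04. The control values equal about 10.4, 2.5 and 5.0 times the lowest non-zero CD14 value of the series after scaling to relative depth, and the OGP46 values about 45.2, 12.8 and 23.7 times. The control levels thus rest on few fragments.

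TLR4 and LY96 form the receptor to which CD14 delivers its ligand. TLR4 went from 5.07, 4.49 and 3.72 FPKM to 7.31, 6.38 and 5.75 FPKM, with no overlap and with ratios of 1.44, 1.42 and 1.54 in the 3 pairs. Its log2 difference of 0.54 (SE 0.14, limma adjusted p = 0.0712) passed the p threshold with the replicate block (SE 0.10, adjusted p = 0.0029), but lay under the minimum of 0.58 and was not called. LY96 went from 0.272, 0 and 0.276 FPKM to 0.493, 0.334 and 0.409 FPKM without overlap. Its log2 difference was 1.08 (SE 0.49, limma adjusted p = 0.185), called with the replicate block (SE 0.31, adjusted p = 0.0306). The LY96 call rested on sample 2, where the control is listed at 0: without sample 2 of both groups the log2 difference was 0.56 (limma adjusted p = 0.240), and without the control sample 2 alone it was 0.44.

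The partners of TLR2 moved apart from TLR2 itself. TLR1 went from 2.18, 0.689 and 1.47 FPKM to 4.94, 1.46 and 3.69 FPKM. The groups overlapped, with sample 2 low in both, while the ratios within pairs were 2.27, 2.12 and 2.51. The log2 difference of TLR1 was 1.13 (SE 0.48, limma adjusted p = 0.164), or with the replicate block SE 0.12 and adjusted p = 1.4e-04. Without control sample 2 the log2 difference was 0.71, and without OGP46 sample 2 it was 1.63.

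TLR6 went from 2.78, 1.18 and 1.51 FPKM to 5.60, 2.58 and 4.24 FPKM, with ratios of 2.01, 2.18 and 2.81. Its log2 difference was 1.16 (SE 0.34, limma adjusted p = 0.0877), or with the replicate block SE 0.12 and adjusted p = 1.4e-04. TLR2 went from 2.60, 1.06 and 2.39 FPKM to 2.68, 1.40 and 3.13 FPKM, with ratios of 1.03, 1.33 and 1.31. The TLR2 groups overlapped and its log2 difference of 0.27 did not pass in either fit (95% interval -0.59 to 1.12, limma adjusted p = 0.644, and -0.00079 to 0.54, adjusted p = 0.128 with the replicate block). TLR6 was at 1.03 to 1.77 times the level of TLR1 in each NB4 sample, and the bases that the 2 genes share limit how far their values are separate. The shared windows were 2.06% of those in the longest TLR6 transcript, and where they lie was not examined.

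TLR9 went from 1.21, 0.548 and 0.726 FPKM to 1.47, 1.27 and 1.48 FPKM in NB4, without overlap, with ratios of 1.22, 2.32 and 2.03. Its log2 difference was 0.76 (SE 0.25, limma adjusted p = 0.103), or with the replicate block SE 0.17 and adjusted p = 0.0111. TLR9, TLR4, CD14 and LY96 were the 4 of 7 genes whose OGP46 samples all lay above the controls, which held for 32.7% of all genes tested.

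The calls differed between scalings of the samples. The median log2 difference of all genes with OGP46 was 0.18 as deposited, 0.06 after TPM scaling and -0.04 after median centring of the samples. With the replicate block, TLR1, TLR6 and CD14 were called under all 3 scalings. TLR9 was lost with median centring (log2 difference 0.54, limma adjusted p = 0.0650) and kept with TPM scaling (0.65, adjusted p = 0.0381). LY96 was lost with both. Of all genes with the replicate block, 595 were higher and 135 lower as deposited, 310 and 142 with TPM scaling, and 188 and 203 with median centring.

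**Figure D3:**
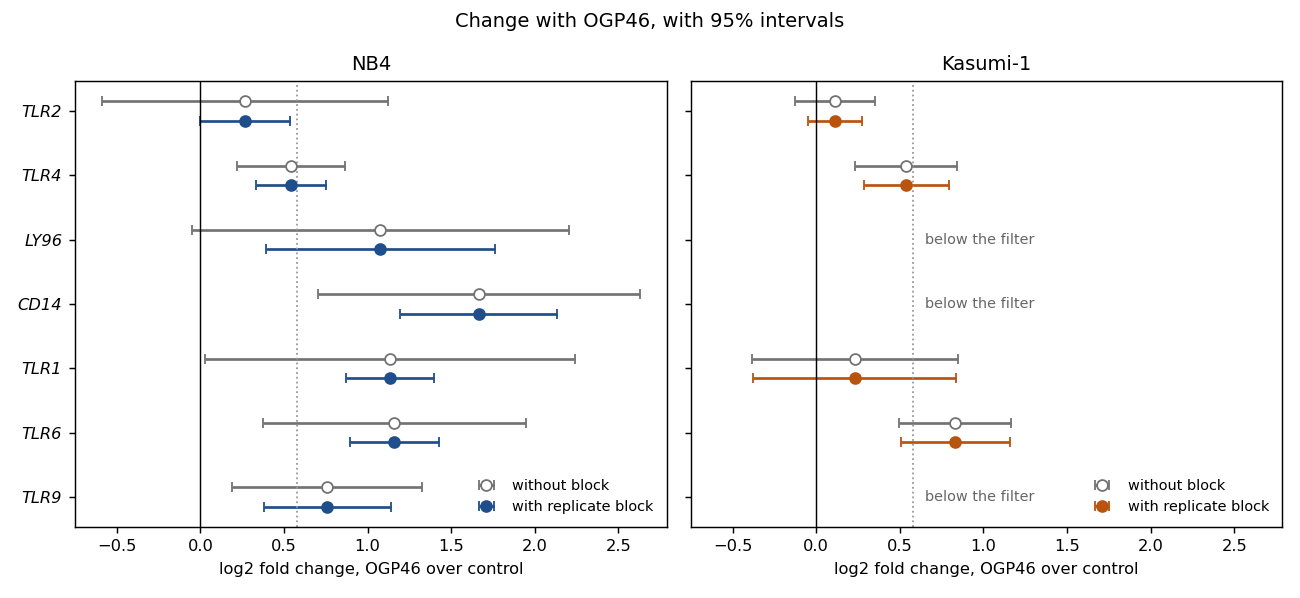
Log2 difference between OGP46 and control (horizontal axis) for 7 genes in NB4 and Kasumi-1, with 95% intervals from limma without (open) and with (filled) the replicate block. The dotted line marks the minimum of 0.58. In NB4 the intervals of TLR1, TLR6 and CD14 with the block lie above it, and LY96, CD14 and TLR9 were below the filter in Kasumi-1.

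NB4 sample 2 stood apart from samples 1 and 3 in both groups, for some of these genes and for some genes of the pathway. In the control, CD14, TLR1, TLR2, TLR6 and TLR9 were at 32.7%, 37.8%, 42.4%, 55.2% and 56.7% of the mean of samples 1 and 3, and TLR4 was at 102%. In the OGP46 sample they were at 38.4%, 33.9%, 48.3%, 52.5% and 86.2%, and TLR4 was at 97.8%. Of 53 pathway genes that averaged 1 FPKM or more over the NB4 samples, 20 were below 60% in both groups, against 1.65% of all genes at that level. These were 7 of 10 inhibitors, 7 of 10 inflammatory targets, 2 of 8 transcription factors, 2 of 16 kinases and ubiquitin ligases, CD36 and CD180, and none of 3 adaptors. TNFAIP3, an NF-kB target that restrains TLR signalling, was at 13.2, 1.57 and 13.3 FPKM in the controls and at 14.0, 2.25 and 16.3 FPKM with OGP46. NFKBIA, the inhibitor of NF-kB, was at 33.2, 12.9 and 36.0 FPKM and at 43.0, 14.2 and 47.4 FPKM.

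Over 9513 genes, sample 2 had a median of 100% of the mean of samples 1 and 3 in the controls and 99.8% with OGP46, and only 2.00% and 2.34% of the genes were below 60%. So CD14, TLR1, TLR2, TLR6 and TLR9 were below 60% in the control sample 2, where LY96 was listed at 0, and TLR4 was not. Without sample 2 of both groups, a setting chosen after seeing the data, TLR1 (log2 difference 1.21, limma adjusted p = 0.0019), TLR6 (1.21, adjusted p = 0.0041) and CD14 (1.77, adjusted p = 0.0034) were called without a block. TLR9 was at 0.60 (adjusted p = 0.126). The labels do not say how sample 2 differed, and its part in the results beyond this was not tested.

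**Figure D4:**
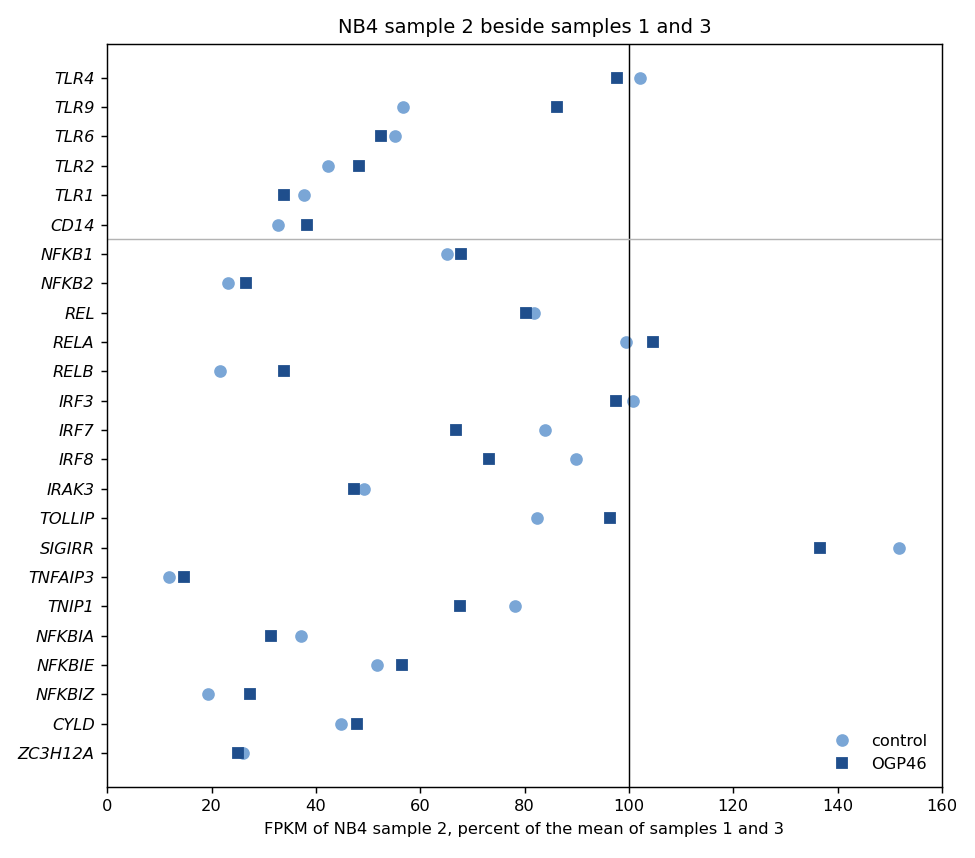
FPKM of NB4 sample 2 as a percentage of the mean of samples 1 and 3 (horizontal axis) in the control and OGP46 groups. Above the grey line are 6 of the receptor genes, and below it the genes of the lists of transcription factors and of inhibitors that had a mean of at least 1 FPKM in NB4. TLR4, RELA and IRF3 lie near 100 in both groups, while TNFAIP3, NFKB2 and ZC3H12A lie under 30.

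Across the 6 NB4 samples, TLR6 varied closely with CD14 (Pearson r = 0.99) and TLR1 (r = 0.96), while TLR2 and TLR4 varied with little relation (r = 0.18). These are descriptions over 6 samples that share treatment groups and the low sample 2. Over the 12 samples, after each line's mean was subtracted, the genes most like TLR4 were PHTF1 (r = 0.98), SAT1 (r = 0.96) and ZNF561 (r = 0.94). Those most like TLR6 were IRF9, ZFYVE16 and NEK7 (each r = 0.97). Those most like CD14 were PRR11 (r = 0.97), TRIB2 (r = 0.97) and ECM1 (r = 0.96), and ECM1 was also among the 3 most like TLR1. For TLR9 they were SH3PXD2B, ITPRIP and C17orf80 (r = 0.96, 0.96 and 0.95), and for LY96 CYP2R1, TLNRD1 and HIP1 (r = 0.92, 0.92 and 0.91). TLR2 was most like IRAK3 (r = 0.98), USP49 and NFKBIA (r = 0.97 each), and is named outside the rule, after its values were seen.

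In Kasumi-1 cells, 1 of the 4 genes tested was called with OGP46 in the fit with pairs. Deviations of same-numbered samples also correlated in this line (r = 0.218, 0.157 and 0.395 over 11835 genes). TLR6 went from 0.658, 0.655 and 0.853 FPKM to 1.33, 1.52 and 1.23 FPKM, without overlap, with ratios of 2.01, 2.32 and 1.44. Its log2 difference was 0.83 (SE 0.15, limma adjusted p = 0.0733), and it was called with the replicate block (SE 0.15, adjusted p = 0.0217). TLR4 went from 1.29, 1.25 and 1.09 FPKM to 2.11, 1.59 and 1.73 FPKM, also without overlap, with ratios of 1.64, 1.27 and 1.59. Its log2 difference of 0.54 (SE 0.14, limma adjusted p = 0.126) lay under the minimum fold, and its adjusted p with the replicate block was 0.0376.

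TLR2, the main receptor of Kasumi-1, was at 8.55, 8.80 and 11.4 FPKM with OGP46 (log2 difference 0.11, 95% interval -0.12 to 0.35, limma adjusted p = 0.636). TLR1 was at 0.154, 0.142 and 0.176 FPKM with OGP46, a level of about 2 to 3 times its lowest value in the series (log2 difference 0.23, SE 0.28, limma adjusted p = 0.717). These 2 genes overlapped between the groups. The ratio of TLR2 to TLR4 was 6.56 to 8.56 in the controls and 4.05 to 6.56 with OGP46.

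Of 4 genes tested in Kasumi-1, none was called by limma without the replicate block, while 2 had an unadjusted p below 0.05, and 1 was called with it. Over all 11835 genes, 0.0169% were called higher without and 0.270% with the replicate block. With the block these were 32 higher and 41 lower, against 26 and 67 with median centring. The OGP46 samples lay above all controls in 2 of the 4 genes and in 17.4% of all genes. TLR9 (0.082, 0.091 and 0.037 FPKM with OGP46), LY96 (0.042, 0.039 and 0.037 FPKM) and CD14 (0.028, 0 and 0 FPKM) stayed below the minimum for a test and overlapped the controls.

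Whether OGP46 acted differently on these genes in the 2 lines was tested as the interaction of line and treatment over all 12 samples. No gene of 12309 was called by limma without the replicate block (0%), while 1348 had an unadjusted p below 0.05. With the replicate block, 1.40% of all genes were called with a more positive effect in NB4. TLR1, TLR2, TLR4 and TLR6 reached the minimum in both lines, and none of these 4 was called in either fit. CD14, LY96 and TLR9 passed the minimum of this test only through NB4. CD14 was at 0.028 FPKM or less in Kasumi-1, LY96 at 0.083 FPKM or less and TLR9 at 0.102 FPKM or less, so for these 3 genes a difference between the lines restates the change in NB4 and no test of it is given.

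TLR4 had nearly the same log2 effect in both lines, with a difference of 0.0043 (95% interval -0.43 to 0.44, or -0.31 to 0.32 with the replicate block), and this sign turned under TPM scaling (-0.14) and median centring (-0.15). The difference for TLR6 was 0.33 (95% interval -0.57 to 1.23), and it was 0.078 without the NB4 control sample 2 and 0.66 without the NB4 control sample 1. For TLR1 it was 0.90 (limma adjusted p = 0.581, or 0.0811 with the replicate block), and from 0.48 without the NB4 control sample 2 to 1.40 without the NB4 OGP46 sample 2. TLR2 differed by 0.15 (95% interval -0.80 to 1.11). The intervals are wide, and a difference that was not called does not show that the lines responded alike.

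The receptors act through proteins whose genes were grouped by role. Among TLR10, TLR3 and the TLR-like CD180 with its partner LY86, 3 of 4 were tested in NB4 and none was called. LY86 was at 6.33 ± 0.906 FPKM in NB4 controls and 0.0626 ± 0.0213 FPKM in Kasumi-1 controls (SD, n = 3, log2 difference 5.30), and reached the minimum only through NB4. CD180 was lower in NB4 (1.51 ± 0.877 against 3.06 ± 0.894 FPKM, log2 difference -1.08, limma adjusted p = 0.0243), where 29.7% of all genes were called lower. Its groups overlapped, with 2.48, 0.764 and 1.29 FPKM in NB4 controls and 2.18, 3.04 and 3.96 FPKM in Kasumi-1 controls, and NB4 sample 2 was lowest. TLR10, the neighbour of TLR1, was at 0.132, 0.012 and 0.062 FPKM in NB4 controls and 0.253, 0.021 and 0.274 FPKM with OGP46, again lowest in sample 2.

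Genes of trafficking and ligand transfer held 1 call of 5 tested in NB4 with the replicate block (5.06% of all genes) and none without it. This was CD36, a scavenger receptor that serves as a co-receptor of TLR2 with TLR6, at 0.749 ± 0.296 FPKM in controls and 1.58 ± 0.936 FPKM with OGP46 (SD, n = 3, log2 difference 0.83, limma adjusted p = 0.281, or 0.0180 with the block). HSP90B1, the chaperone of TLRs, was at 416 ± 94.2 and 413 ± 89.9 FPKM, and CNPY3, its co-chaperone, at 25.4 ± 0.874 and 30.3 ± 0.668 FPKM. Between the lines, PLD4 was lower (log2 difference -4.03) and CD36 higher (2.90) in NB4, and CNPY3 was lower (-0.62). Of 5 tested, 1 was thus higher and 2 lower, against 22.7% and 29.7% of all genes. CD36 had a mean of 0.0099 FPKM in Kasumi-1 controls and reached the minimum only through NB4.

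Among the adaptors, 2 of 5 tested were called in NB4 with the replicate block, against 5.06% of all genes, and none without it, against 1.45%. TIRAP, the bridge between TLR2 or TLR4 and MYD88, went from 0.586 ± 0.0565 to 1.11 ± 0.234 FPKM (SD, n = 3, log2 difference 0.80, limma adjusted p = 0.0627, or 0.0091 with the block). TICAM1 (TRIF) had a log2 difference of 0.70 (limma adjusted p = 0.176, or 0.0344 with the block). MYD88 was at 8.76 ± 0.0438 and 10.6 ± 0.728 FPKM (log2 difference 0.27, limma adjusted p = 0.0974) and PIK3AP1 at 35.1 ± 2.19 and 38.9 ± 3.81 FPKM. The read-through TMED7-TICAM2 was called in NB4 (log2 difference 2.28, limma adjusted p = 0.0450) while TICAM2, with which it shares exons, was at -0.32 (adjusted p = 0.335), so neither value is certain. Between the controls, where 22.7% of all genes were called higher and 29.7% lower in NB4, all 6 adaptors were called: PIK3AP1 and TICAM2 were higher, and MYD88 (log2 difference -0.85), TIRAP, TICAM1 and SARM1 were lower. SARM1 had a mean of 0.0188 FPKM in NB4 controls and reached the minimum only through Kasumi-1.

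Of the kinases and ubiquitin ligases, 1 of 16 tested in NB4 was called with the replicate block, a share near the 5.06% of all genes, and none without. It was IRAK2, at 1.38 ± 0.740 and 2.57 ± 1.37 FPKM (SD, n = 3, log2 difference 0.84, limma adjusted p = 0.321, or 9.9e-04 with the block). IRAK1, which had the highest mean of this list, was at 54.7 ± 17.5 and 57.4 ± 22.8 FPKM, and MAP3K7 was at 12.7 ± 0.512 and 14.4 ± 1.30 FPKM. Between the controls, IRAK1 (log2 difference 0.69), IKBKG (0.89) and IKBKE (1.29) were higher and TRAF6 (-1.04) was lower in NB4. These were 3 and 1 of 16 tested, against 22.7% and 29.7% of all genes. The median log2 difference of this list with OGP46 was 0.20, near that of all genes.

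Of 9 transcription factors, NFKB2, RELB and IRF7 were called in NB4 with the replicate block, against 5.06% of all genes, and none without it, against 1.45%. NFKB2 went from 2.65, 0.636 and 2.82 FPKM to 4.96, 1.48 and 6.19 FPKM (log2 difference 1.03, limma adjusted p = 0.297, or 1.7e-04 with the block), with sample 2 low in both groups. RELA was at 19.5 ± 0.564 and 21.6 ± 1.12 FPKM (SD, n = 3) and IRF8, a myeloid factor, at 22.4 ± 1.94 and 28.0 ± 5.0 FPKM. Between the controls, IRF8 (log2 difference 4.70) and IRF7 (1.63) were higher and IRF5 (-3.38) and REL (-0.76) lower in NB4. These were 2 and 2 of 9 tested, against 22.7% and 29.7% of all genes.

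Of the inhibitors, 1 of 10 tested was called in NB4 with the replicate block, which is little above the 5.06% of all genes, and none without. It was CYLD, a deubiquitinase, with 5.55 ± 2.26 and 9.74 ± 3.55 FPKM (SD, n = 3, log2 difference 0.82, limma adjusted p = 0.182, or 3.5e-04 with the block). IRAK3, which blocks IRAK signalling and was most like TLR2 in pattern, was at 26.7 ± 9.60 and 32.9 ± 12.7 FPKM in NB4 and at 31.4 ± 0.785 and 32.2 ± 1.99 FPKM in Kasumi-1. Between the controls, TNFAIP3 (log2 difference 2.19), NFKBIA (1.23), CYLD (1.04) and ZC3H12A (2.33) were higher and SIGIRR (-1.58) lower in NB4. These were 4 and 1 of 10 tested, against 22.7% and 29.7% of all genes. For TNFAIP3 the groups overlapped, as NB4 sample 2, at 1.57 FPKM, lay within the Kasumi-1 range of 1.02 to 1.58 FPKM.

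Among the 7 pathway lists, the inflammatory target genes held the largest share of calls in NB4. With the replicate block 8 of 14 tested were higher, against 5.06% of all genes, and without it 1, IL10, against 1.45%. IL10, an anti-inflammatory cytokine, went from 0.028, 0.062 and 0.056 FPKM to 0.648, 0.597 and 0.207 FPKM (log2 difference 1.87). Its control mean of 0.049 FPKM lay under the minimum, which it reached only through the OGP46 samples. Its calls in the 2 fits are therefore no test of their own, and no p is given. CXCL8, a neutrophil chemokine, went from 8.19, 1.67 and 7.69 FPKM to 29.5, 7.20 and 27.8 FPKM (log2 difference 1.91, limma adjusted p = 0.121, or 4.7e-07 with the block).

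IL1B went from 2.10, 0.436 and 0.984 FPKM to 7.67, 2.14 and 4.33 FPKM (log2 difference 1.97, limma adjusted p = 0.0817, or 3.3e-06 with the block). TNF, at 34.3 ± 13.4 and 53.8 ± 19.6 FPKM (SD, n = 3), had the highest mean of the list over the 12 samples (log2 difference 0.66, limma adjusted p = 0.251, or 8.8e-04 with the block). ICAM1, CCL2, CCL20 and CXCL2 were the other 4 called with the block. CXCL8 and IL1B were, like CD14 and TLR1, low in sample 2 of both groups, while IL10 was not.

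In Kasumi-1, the inflammatory targets were the only 1 of these 7 lists with a call, and only with the replicate block, where 2 of 10 tested were higher, against 0.270% of all genes. CXCL8 went from 0.788, 1.53 and 3.41 FPKM to 3.66, 3.70 and 7.0 FPKM (log2 difference 1.44, limma adjusted p = 0.164, or 0.0050 with the block), and CXCL1 had a log2 difference of 1.00 (limma adjusted p = 0.0647, or 0.0076 with the block). The other lists had medians between -0.41 and 0.10 there, against 0.05 for all genes tested.

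With the replicate block, the effects of OGP46 on NFKB2, TNF, IL1B and ICAM1, which reached the minimum in both lines, differed between the lines and were more positive in NB4, against 1.40% of all genes. IL10 was listed at 0 in all 6 Kasumi-1 samples and is not compared. Between the controls, 14 inflammatory targets were tested. Of these, 5 were called higher in NB4 (TNF, CCL2, CCL3, CCL4 and CCL20) and 4 lower (CXCL1, CXCL2, CXCL3 and PTGS2), against 22.7% and 29.7% of all genes. Of those called, only TNF, CXCL2 and CXCL3 reached the minimum in the controls of both lines. CCL2, CCL3, CCL4 and CCL20 passed it only through NB4, and CXCL1 and PTGS2 only through Kasumi-1, so their calls are no test of their own. TNF was at 34.3 ± 13.4 FPKM in NB4 controls and 0.368 ± 0.219 FPKM in Kasumi-1 controls (SD, n = 3, log2 difference 6.22).

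CD14 and TLR4 are also monocyte genes, and some monocyte and macrophage markers rose in NB4. The summed level of the list overlapped between the groups, but most of it was LYZ. Of 12 markers, 9 were tested, and ITGAM (log2 difference 1.08), ITGAX (1.11), CD68 (0.62) and C5AR1 (1.93) were called higher without a block, against 1.45% of all genes. With the replicate block 5 were higher and 1, CCR2, was lower, against 5.06% and 1.15% of all genes. The defining macrophage markers CD163 and MRC1 were listed at 0 in all NB4 samples. The summed level of the 12 markers was 290 to 412 FPKM in NB4 controls and 292 to 398 FPKM with OGP46. LYZ had means of 318 and 314 FPKM there, with ranges of 270 to 391 and 262 to 367 FPKM. The sum therefore says little about the other markers. In Kasumi-1 none of the 7 markers tested was called in either fit. The part of these markers in the receptor values was not tested.

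Markers of the lines were compared with their labels. The summed level of 7 promyelocyte genes (MPO, ELANE, AZU1, PRTN3, CTSG, HGF and CD33) was 2620 to 3961 FPKM in NB4 controls and 1600 to 2831 FPKM with OGP46, but 7789 to 11938 FPKM over all Kasumi-1 samples, so this list did not mark NB4. In NB4, 4 of the 7 were called lower with the replicate block, against 1.15% of all genes. CD34, KIT, ELANE and RUNX1T1 were in NB4 samples at no more than 1.35%, 0.950%, 0.962% and 0.895% of their Kasumi-1 control means. Each of these maxima was in NB4 control sample 3, and every other NB4 sample was lower. ELANE was at 14.5 FPKM there, against 0.504 and 3.30 FPKM in control samples 1 and 2, and the cause was not tested. Erythroid and fibroblast markers summed to at most 0.184 and 0.083 FPKM in any group. The T cell marker list summed to 14.0 to 20.9 FPKM in NB4 controls and 23.2 to 35.5 FPKM with OGP46. Nearly all of this was CD3D, at 13.5 to 20.4 and 22.5 to 34.6 FPKM, while CD2 was listed at 0 and the means of CD3E and CD3G were at most 0.0209 and 0.200 FPKM. The B cell list summed to 7.79 to 15.9 FPKM and the epithelial list to 7.27 to 17.6 FPKM in NB4 samples, where MS4A1, KRT19 and CDH1 were listed at 0. In Kasumi-1 the epithelial list summed to 40.3 to 56.1 FPKM, of which EPCAM had means of 48.6 FPKM in controls and 45.5 FPKM with OGP46.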

How the data were processed

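Poly(A) mRNA of NB4 and Kasumi-1 cells was sequenced in 12 samples, 3 for each line and treatment, grouped as labelled. The authors deposited FPKM, 1 value per gene symbol and sample. The submitters' processing notes name Trimmomatic, HISAT2, Cufflinks, HTSeq and hg38, without versions. The annotation and the strand setting are not given in the sources used here. FPKM are already divided by length and library total, so depth is known only in relative terms. Steps of low values over 3183 genes gave relative depths of 0.923 to 1.07. The limits that pick these genes were changed several times after values had been seen, for reasons of reporting and not of the data, and were then set to the geometric midpoint of 1 and 2 fragments. Because FPKM come from an estimate, neither counting intervals nor floors are given, and precision rests on 3 samples a group.

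After 27 symbols that had become dates were dropped, 20003 genes remained. Values were compared as log2(FPKM + 0.1) with limma 3.58.1 in R 4.3.3 (empirical Bayes with trend, Benjamini-Hochberg adjustment over all genes tested, mean of at least 0.1 FPKM). A call needed an adjusted p below 0.05 and a log2 difference of at least 0.58, a 1.49-fold change. The 4 comparisons were OGP46 against control in each line, the interaction, and the controls of the lines. The fits were tested on simulated data.

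Sample numbers were taken as pairs within a line. Over genes of at least 5 FPKM, same-numbered samples correlated at r = 0.662, 0.850 and 0.439 in NB4 and at 0.416, 0.433 and 0.621 in Kasumi-1. The members and lists were chosen with earlier results of these data known. The genes named are all 10 receptor genes, every gene of 7 pathway lists called in a comparison, the 2 of each list with the highest mean FPKM, and for receptor genes without overlap between treatments the 3 most correlated genes. Genes called only with the replicate block, the markers and the NF-kB genes named for sample 2 fall partly outside that rule and were named after their values were seen. Other settings are given in the closing section.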

Additional observations from a re-analysis of the deposited data

How the results depend on the processing

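Of 11750 genes tested in NB4, 183 were called as deposited. The count was 117 with a pseudocount of 1, 4 with no filter and 4 without a trend, 0 with TPM scaling, median centring or quantile normalization, 498 in a joint fit of the 12 samples, and 0 to 396 leaving out each replicate in turn. With the replicate block it was 730, or 391 with median centring and 452 with TPM scaling too. Without NB4 sample 2 of both groups it was 543, or 757 with the block, which leaves 1 residual degree of freedom. Called receptor genes went from 0 to 5 with the block, 3 with block and median centring, 4 with block and TPM scaling, 2 in the joint fit, 3 without sample 2 in either fit, and 0 to 3 leaving out each replicate (3 without the OGP46 replicate 2).

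In Kasumi-1, 4 genes were called as deposited, 2 with a pseudocount of 1, 0 with no filter, 24 with a minimum of 1 FPKM, 18 with TPM scaling, 18 with median centring, 11 with quantile normalization, 0 without a trend, 27 with array weights, 1 in the joint fit and 0 to 11 leaving out each replicate. The replicate block gave 73, 93 with median centring and 98 with TPM scaling. TLR6 was the 1 receptor gene called with the block in these 3 settings, with array weights and with a minimum of 1 FPKM. For the interaction, 0 genes were called as deposited, 12 with a pseudocount of 1, 0 to 1 leaving out each replicate, and 185 with the block (172 higher, 13 lower), 81 with median centring (55 and 26), 75 with TPM scaling (53 and 22) and 64 without NB4 sample 2. In each of these 4 settings with the block, 1 receptor gene was called, CD14, which passed the minimum only through NB4, so the call restates its change there.

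Between the controls, 5 receptor genes were called, 3 with a minimum of 1 FPKM, where fewer genes are tested, and 6 without NB4 control replicate 2, where LY96 was added. Sample numbers did not pair the lines' controls (r from -0.049 to 0.041), and the block gave 6466 calls against 6449. TLR2 turned to -0.12 in NB4 without control replicate 2 (range to 0.60), and to -0.015 in Kasumi-1 without OGP46 replicate 3 (range to 0.19). In the interaction TLR2 ranged from -0.23 to 0.49 and TLR4 from -0.11 to 0.11 leaving out each replicate. The TLR4 interaction was also -0.019 with a pseudocount of 0.01, -0.14 with TPM scaling, -0.15 with median centring and -0.16 with quantile normalization, and the block left the values with TPM scaling and median centring as they were. The cause of these changes was not tested. The block changed no other call of a receptor gene than those given. Over 16 other pairs of limits for the steps of low values, 698 to 5693 genes were used, the highest relative depth was 1.04 to 1.07 and the highest CD14 multiple was 44.3 to 45.3.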
